A study of Homo sapiens with 24 samples.

Results

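REST, the repressor that keeps neuronal genes silent outside the nervous system, was followed together with 48 genes that neurons use to build synapses, release transmitter and shape their axons. The 49 genes were picked by name from the 57820 genes of the deposited count tables, and all 49 names were found. They were chosen with earlier results of these data known, so their shares are not independent of that choice when set against all genes. RNA had been sequenced from U2OS cells, a human osteosarcoma line, and from AID-DIvA cells, a U2OS derivative carrying a vector for the AsiSI restriction enzyme, each as wild type (WT) and with ID3 knocked out (KO). Each line and genotype was left untreated or given mocetinostat, an inhibitor of class I histone deacetylases (HDACs), and each of the 8 groups had 3 biological replicates. U2OS cells were collected after 24 h of mocetinostat, before any recovery, a stage inferred from the methods. AID-DIvA cells had 24 h of mocetinostat followed by 24 h in fresh medium. The dose was not given in the sources used here, nor was the number of clones behind each knockout. Stage and line label coincide throughout, and the library names of the U2OS samples also carry the word DivA, so a difference between stages and a difference between lines cannot be told apart. Titles, not the treatment entries that disagree with them, gave the groups of the AID-DIvA libraries.

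REST is a zinc finger protein that binds a long DNA element, RE1, at neuronal genes. It brings in a pair of corepressor complexes, CoREST (with the RCOR proteins, the demethylase KDM1A and HDAC1 or HDAC2) and SIN3, which also carry class I HDACs. Loss of REST during neuronal differentiation is known to free genes for synaptic vesicle proteins, granins and ion channels. Among those followed here, the synapsins and synaptophysin sit on synaptic vesicles, SNAP25, syntaxin and VAMP2 drive membrane fusion, synaptotagmins sense calcium, granins fill dense core vesicles, and stathmins, GAP43 and neurofilaments shape the growing axon.

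Total counts ran from 37878751 to 76906266 in AID-DIvA libraries and from 46285533 to 70692114 in U2OS libraries. The group mean of ID3 RNA was 62.3 ± 15.9 CPM (SD, n = 3) in untreated WT and 30.6 ± 1.53 in untreated KO U2OS cells, and 50.4 ± 2.20 and 34.7 ± 3.61 in untreated WT and KO AID-DIvA cells, where CPM is the count relative to library size, in parts per 1e6, with TMM factors over all 24 libraries. ID3 RNA was thus lower but present in KO libraries, and a knockout at the protein level cannot be read from it. Mesenchymal markers (12 genes, among them VIM, SPARC and RUNX2) summed to 4390 to 4780 CPM in untreated and 2950 to 3180 in treated WT U2OS libraries, 3960 to 4120 and 2900 to 3030 in KO U2OS, 3380 to 3500 and 2340 to 2770 in WT AID-DIvA and 4100 to 4290 and 3080 to 3150 in KO AID-DIvA libraries, lower after treatment in each case. Single markers did not all follow the sums. At the thresholds given below, 1 of the 12 was called higher and 1 lower in WT U2OS cells, and 2 higher and none lower in KO U2OS cells. In each AID-DIvA genotype none was called higher and 1 lower. The part of the lower sums in the results was not tested. Over all libraries, 6 immune markers summed to 0.371 to 0.958 CPM, 9 glial markers to 23.0 to 34.8 and 5 epithelial markers to 254 to 441. Of the 9 glial markers, 3 were called higher in each U2OS genotype, and 1 was lower in WT and none in KO cells. Of the immune and of the epithelial markers, 1 was called higher and none lower in each U2OS genotype. In AID-DIvA cells none of these was called higher, and 1 glial marker in each genotype and 1 immune marker in WT cells were lower. TWIST1 had no counts in 5 of the 8 groups. The first replicate of untreated WT U2OS cells stood apart from the other two (chi-square per gene 103 and 91.1, against 4.32 between that pair and at most 27.3 within any other group). Its effect is given beside the calls that change without it and beside the WT U2OS values that move by over 0.2 on the log2 scale.

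Before recovery, mocetinostat raised most of these genes. At an adjusted p below 0.05 (edgeR quasi-likelihood test, Benjamini-Hochberg over all genes tested) and a fold change beyond 2, on the log2 scale beyond 1, 28 of the 49 genes were called higher and 2 lower in WT U2OS cells, where 13.6% of 21797 tested genes were called higher and 5.06% lower. In KO U2OS cells 31 were higher and 2 lower, against 14.6% and 5.77% of 21176 genes. After recovery 11 were higher and 3 lower in WT AID-DIvA cells, against 4.86% and 2.52% of 20289 genes, and 16 were higher and 3 lower in KO AID-DIvA cells, against 4.9% and 2.56% of 20362. The median log2 fold change of the members tested was 1.86 in WT and 1.91 in KO U2OS cells (45 members tested in each) and 0.52 and 0.70 in WT and KO AID-DIvA cells (42 tested in each), while that of all tested genes lay between -0.02 and 0.01. Without the first untreated WT U2OS library, described above, 27 members were higher and 2 lower in WT U2OS cells. Adjusted p of the called members ran from 1.93e-07 to 0.00208 in WT U2OS, from 1.35e-21 to 2.14e-08 in KO U2OS, from 2.5e-10 to 0.000564 in WT AID-DIvA and from 6.77e-08 to 0.00107 in KO AID-DIvA cells (edgeR). Treated and untreated libraries did not overlap for any called member, and the share of all called genes without overlap was not counted. SYT4, GRIN1, STMN4, STMN2 and RAB3C passed the filter on low counts in U2OS cells through the treated libraries alone, since none of them passed it between the untreated groups, and STMN2 and RAB3C did so in AID-DIvA cells as well. Such genes had to differ to be tested. Without them 23 of the 49 were higher in WT and 26 in KO U2OS cells, and 9 in WT and 14 in KO AID-DIvA cells, and the medians were 1.42, 1.40, 0.46 and 0.65. CPLX2 in WT U2OS cells (7, 13 and 6 untreated counts) passed the filter in part through treated libraries. So did CPLX2 (10, 14 and 13) and CHGA (14, 13 and 12) in KO AID-DIvA cells, and these calls are still in those counts. GRIA1, GRIA2, INA and ELAVL3 passed in no comparison. In these bulk libraries more RNA per cell and more cells with the RNA cannot be told apart.

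**Figure D1:**
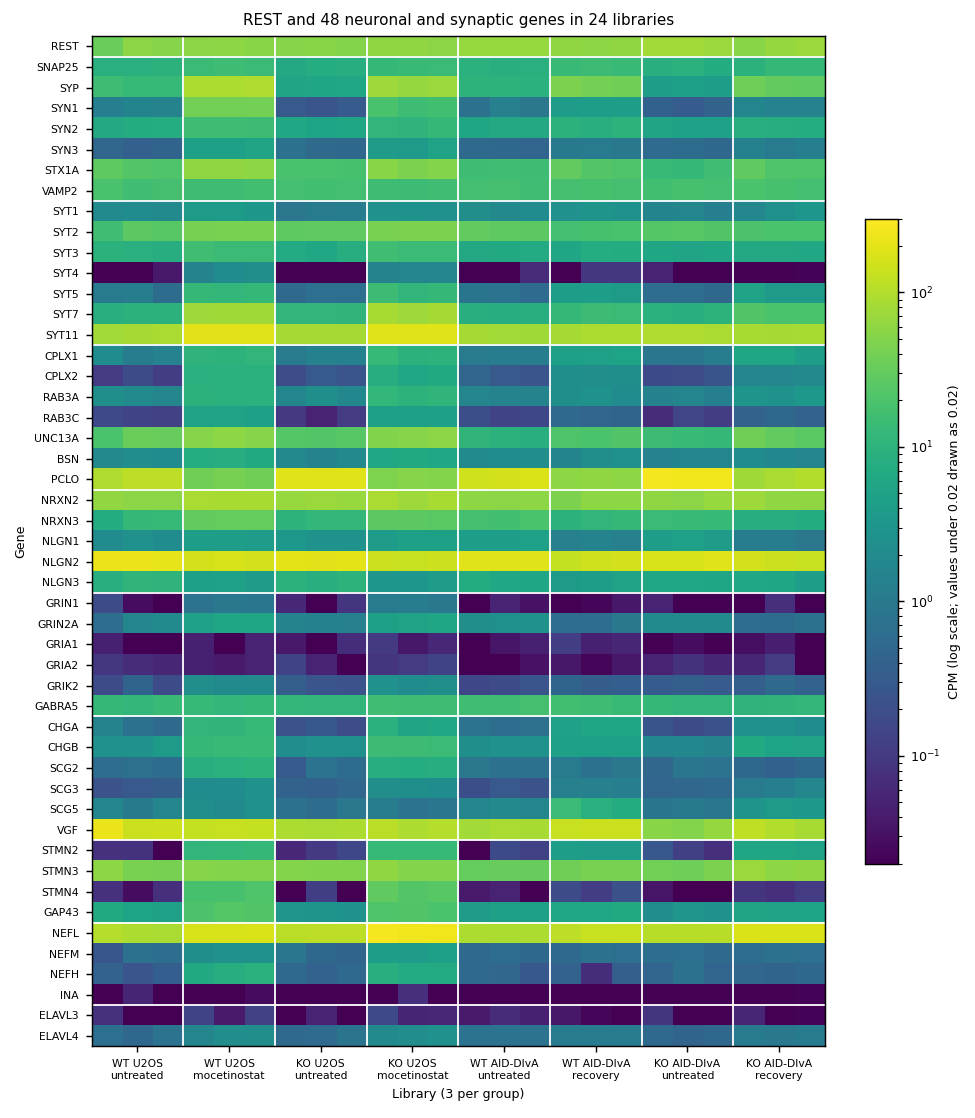
CPM of REST and the 48 neuronal and synaptic genes (rows, by class) in each of the 24 libraries (columns, 3 per group), on a log colour scale with values under 0.02 CPM drawn as 0.02. In the treated U2OS columns STMN4, STMN2, SYT4 and CPLX2 leave the darkest colours, while REST keeps nearly one shade throughout.

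REST itself moved little. REST (ENSG00000084093.11, chromosome 4, 57774075 to 57802010, plus strand) gave 33.5, 55.6 and 53.3 CPM in the untreated WT U2OS libraries and 56.9, 58 and 53.8 after mocetinostat, and 53.3, 54.7 and 50.8 in the untreated KO libraries and 61.5, 61.7 and 56.6 after mocetinostat. The first untreated WT library was low, and treated and untreated WT libraries overlapped, while KO libraries were all higher after treatment. In AID-DIvA cells REST gave 66.8, 67.1 and 68.2 CPM in untreated and 61.2, 59.1 and 60 in recovered WT libraries, and 80.1, 78.8 and 69.9 in untreated and 54.5, 65.7 and 69.9 in recovered KO libraries, and recovered WT libraries lay below untreated ones, while the highest recovered and the lowest untreated KO library were level. The log2 fold change of REST was 0.26 ± 0.18 (SE) in WT U2OS cells (adjusted p = 0.264, edgeR) and 0.18 ± 0.05 in KO U2OS cells (adjusted p = 0.00203, edgeR). After recovery it was -0.16 ± 0.04 in WT (adjusted p = 0.00873, edgeR) and -0.26 ± 0.10 in KO AID-DIvA cells (adjusted p = 0.0702, edgeR), and no comparison reached the fold threshold. Without the library that stood apart, the WT U2OS value was 0.05 (adjusted p = 0.294, edgeR).

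Of 18 genes for REST cofactors, 1 was called higher and none lower in WT U2OS cells, and 1 higher and 1 lower in KO U2OS cells, with none called after recovery in either genotype. RCOR2, a CoREST protein of the nervous system and of stem cells, rose from 3.44 ± 0.362 to 11.2 ± 0.148 CPM (SD, n = 3) in WT and from 3.34 ± 0.0652 to 13.9 ± 1.80 in KO U2OS cells, log2 fold changes of 1.71 ± 0.11 and 2.06 ± 0.10. CTDSP1, a phosphatase that stabilises REST, fell from 118 ± 4.35 to 56.1 ± 6.16 CPM in KO U2OS cells, a log2 fold change of -1.06 ± 0.06. Its WT value, -0.92 ± 0.10, did not reach the fold threshold. The median log2 fold change of the 18 was -0.20 in WT and -0.15 in KO U2OS cells. Of 5 genes for REST turnover and splicing, SRRM4, a neuronal splicing factor that makes a truncated REST isoform, was the 1 gene called. It went from 0.0310 ± 0.0536 to 1.21 ± 0.174 CPM in WT and from 0.0643 ± 0.0390 to 1.0 ± 0.0770 in KO U2OS cells. SRRM4 held 6, 0 and 0 counts in the untreated WT and 1, 5 and 5 in the untreated KO U2OS libraries. It thus passed the filter on low counts through its treated libraries and had to differ to be tested.

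The RE1 element was looked for within 1000 bases on either side of each gene's outermost start in the GRCh37 genome, on both strands, as CAGCACC, any 2 bases, and GGACAG, with at most 1 mismatch in the 13 fixed letters. At least 1 match was found for 13 of the 49 genes (26.5%), against 664 of 57783 genes (1.15%) and 329 of the 21797 genes tested in WT U2OS cells (1.51%). Several of these genes are textbook REST targets, so a high share was built into the choice of genes. The matches without a mismatch are shown, apart from that of NEFM. The shares above also count matches with 1 mismatch. Each is written 5′ to 3′ along the strand that reads CAGCACC, with 5 flanking bases on each side and the fixed letters in capitals, and the coordinates are those of the match alone.
CHGA (chr14:93389870-93389884, plus strand, intron): gttttCAGCACCgcGGACAGcgcct
CHGB (chr20:5892352-5892366, plus strand, intron): ccggtCAGCACCgcGGACAGcgcca
GRIN1 (chr9:140033714-140033728, plus strand, UTR exon): cgcttCAGCACCgcGGACAGcgccg
SNAP25 (chr20:10200322-10200336, plus strand, intron): cctttCAGCACCggGGACAGcggtc
SYN1 (chrX:47479473-47479487, minus strand, upstream of the gene): agcttCAGCACCgcGGACAGtgcct
SYP (chrX:49056585-49056599, minus strand, intron): cgctcCAGCACCgtGGACAGagccc
SYT4 (chr18:40857262-40857276, minus strand, UTR exon): cccttCAGCACCtcGGACAGaacac
SYT5 (chr19:55691572-55691586, minus strand, UTR exon): gcgatCAGCACCcgGGACAGcgcca
NEFM also held a match without a mismatch. With 1 mismatch, SNAP25 held a further match, and GRIN2A, VGF, STMN3 and ELAVL3 held 1 each. Of the 12 members with a match that were tested in U2OS cells, 9 were called higher in WT and 9 in KO cells, beside 19 and 22 of the 33 tested members without one. SYT4 and GRIN1 with a match, and STMN2, STMN4 and RAB3C without one, passed the filter through treated libraries and had to differ to be tested. Over all genes tested with a match and not among the members, 86 of 317 (27.1%) were called higher in WT and 90 of 310 (29%) in KO U2OS cells. After recovery the same shares were 25 of 278 (8.99%) in WT and 25 of 276 (9.06%) in KO AID-DIvA cells. Of all genes tested, 13.6% and 14.6% were called higher in WT and KO U2OS cells and 4.86% and 4.9% in WT and KO AID-DIvA cells. The same genes with a match were called lower in 6.31% and 7.1% in U2OS and 3.6% and 5.07% in AID-DIvA cells (WT, KO). Of all genes tested, those called lower were 5.06%, 5.77%, 2.52% and 2.56%, so both directions held more calls. A match is a run of letters and was not tested for REST binding in these cells.

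Of the 7 genes for vesicle and SNARE proteins, 5 rose in WT and 4 in KO U2OS cells, and 2 and 3 rose after recovery in WT and KO AID-DIvA cells. Synaptophysin, SYP (ENSG00000102003.6, chromosome X, 49044269 to 49056718, minus strand), is the classic membrane protein of synaptic vesicles. SYP gave 15.4, 12.6 and 12.4 CPM in untreated and 90.7, 91.7 and 93.7 in treated WT U2OS libraries, with 5.45, 5.72 and 6.04 in untreated and 74.1, 64.6 and 71.1 in treated KO libraries. The AID-DIvA libraries gave 10.1, 10 and 9.35 CPM in the untreated WT libraries, 45.5, 40.7 and 37.2 in WT cells after recovery, 4.33, 4.47 and 4.46 in the untreated KO libraries and 36, 29.6 and 28.8 in KO cells after recovery. Every treated library exceeded every untreated one of its line and genotype. Its fold changes were 2.78 ± 0.10 and 3.61 ± 0.07 in WT and KO U2OS cells and 2.08 ± 0.08 and 2.83 ± 0.09 in WT and KO AID-DIvA cells (log2 fold change ± SE). Reads that SYP shares with a gene on the opposite strand are lost in these counts, which held 0.936 of the counts of its own strand.

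Synapsin I, SYN1 (ENSG00000008056.8, chromosome X, 47431303 to 47479252, minus strand), tethers vesicles to the actin cytoskeleton. SYN1 gave 1.27, 1.53 and 1.46 CPM without and 38.3, 39.3 and 40.5 with mocetinostat in WT U2OS cells, beside 0.291, 0.253 and 0.321 without and 18.7, 15.4 and 16.6 with it in KO cells, and KO libraries lay below WT libraries at either treatment. AID-DIvA cells showed 0.748, 1.31 and 0.917 CPM in untreated and 4.06, 4.17 and 4.39 in recovered WT libraries, and 0.395, 0.328 and 0.434 in untreated and 1.68, 1.40 and 1.41 in recovered KO libraries. Recovered AID-DIvA libraries thus lay above their untreated controls and below the treated U2OS libraries. The changes were 4.80 ± 0.10 in WT and 5.88 ± 0.14 in KO U2OS cells before recovery, and 2.08 ± 0.16 in WT and 1.96 ± 0.18 in KO AID-DIvA cells after it (log2 fold change ± SE).

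SYN2 (ENSG00000157152.12, chromosome 3, 12045876 to 12232900, plus strand) and SYN3 (ENSG00000185666.10, chromosome 22, 32908539 to 33454358, minus strand) are its relatives. SYN2 gave 6.75, 7.41 and 7.62 CPM in the untreated WT U2OS libraries and 15.2, 14.9 and 14.6 after mocetinostat, and 6.28, 5.21 and 5.69 in the untreated KO libraries and 11.1, 10.5 and 11.9 after mocetinostat. In the AID-DIvA line SYN2 gave 5.90, 6.53 and 6.64 CPM in the untreated WT libraries, 9.54, 8.72 and 9.86 in WT cells after recovery, 5.58, 4.87 and 4.99 in the untreated KO libraries and 8.15, 7.91 and 7.59 in KO cells after recovery. The treated libraries were higher in each comparison without overlap, and the changes were 1.05 ± 0.08 and 0.97 ± 0.08 in WT and KO U2OS cells and 0.57 ± 0.08 and 0.62 ± 0.09 in WT and KO AID-DIvA cells (log2 fold change ± SE), so that SYN2 passed the fold threshold in WT U2OS cells alone, at 1.0 without the library that stood apart and no longer called there. SYN3 gave 0.480, 0.386 and 0.436 CPM in untreated and 4.71, 4.76 and 5.53 in treated WT U2OS libraries, with 0.737, 0.557 and 0.517 in untreated and 4.12, 3.70 and 5.07 in treated KO libraries. Its AID-DIvA values were 0.545, 0.515 and 0.459 CPM in untreated and 0.958, 1.06 and 0.938 in recovered WT libraries, and 0.567, 0.601 and 0.510 in untreated and 1.37, 1.10 and 1.26 in recovered KO libraries. SYN3 was low in all untreated groups, and changed by 3.54 ± 0.16 in WT and 2.85 ± 0.17 in KO U2OS cells before recovery, and 0.97 ± 0.19 in WT and 1.12 ± 0.16 in KO AID-DIvA cells after it (log2 fold change ± SE).

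Syntaxin 1A, STX1A (ENSG00000106089.7, chromosome 7, 73113536 to 73134002, minus strand), is a membrane SNARE of the presynapse. STX1A gave 27.9, 22.9 and 21.3 CPM without and 59.8, 60.5 and 59.2 with mocetinostat in WT U2OS cells, beside 19.2, 19 and 18.3 without and 54, 45 and 51 with it in KO cells. The AID-DIvA libraries gave 15.3, 15.7 and 15.1 CPM in the untreated WT libraries, 29.5, 22.5 and 21.2 in WT cells after recovery, 13.3, 12.1 and 15.7 in the untreated KO libraries and 28.4, 21.3 and 21.6 in KO cells after recovery for STX1A. STX1A passed the fold threshold before recovery only, with changes of 1.32 ± 0.11 and 1.42 ± 0.06 in WT and KO U2OS cells and 0.67 ± 0.10 and 0.79 ± 0.12 in WT and KO AID-DIvA cells (log2 fold change ± SE). SNAP25, the other membrane SNARE, and VAMP2, the SNARE of the vesicle, were called in no treatment comparison. Group means of SNAP25 lay between 7.52 and 14.3 CPM and its changes were 0.65 ± 0.08 in WT and 0.79 ± 0.08 in KO U2OS cells before recovery, and 0.60 ± 0.07 in WT and 0.44 ± 0.12 in KO AID-DIvA cells after it (log2 fold change ± SE), all at an adjusted p below 0.05 (edgeR). Group means of VAMP2 lay between 15.2 and 18.1 CPM, and its changes were -0.16 ± 0.10 and -0.14 ± 0.06 in WT and KO U2OS cells and 0.10 ± 0.06 and 0.09 ± 0.08 in WT and KO AID-DIvA cells (log2 fold change ± SE).

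**Figure D2:**
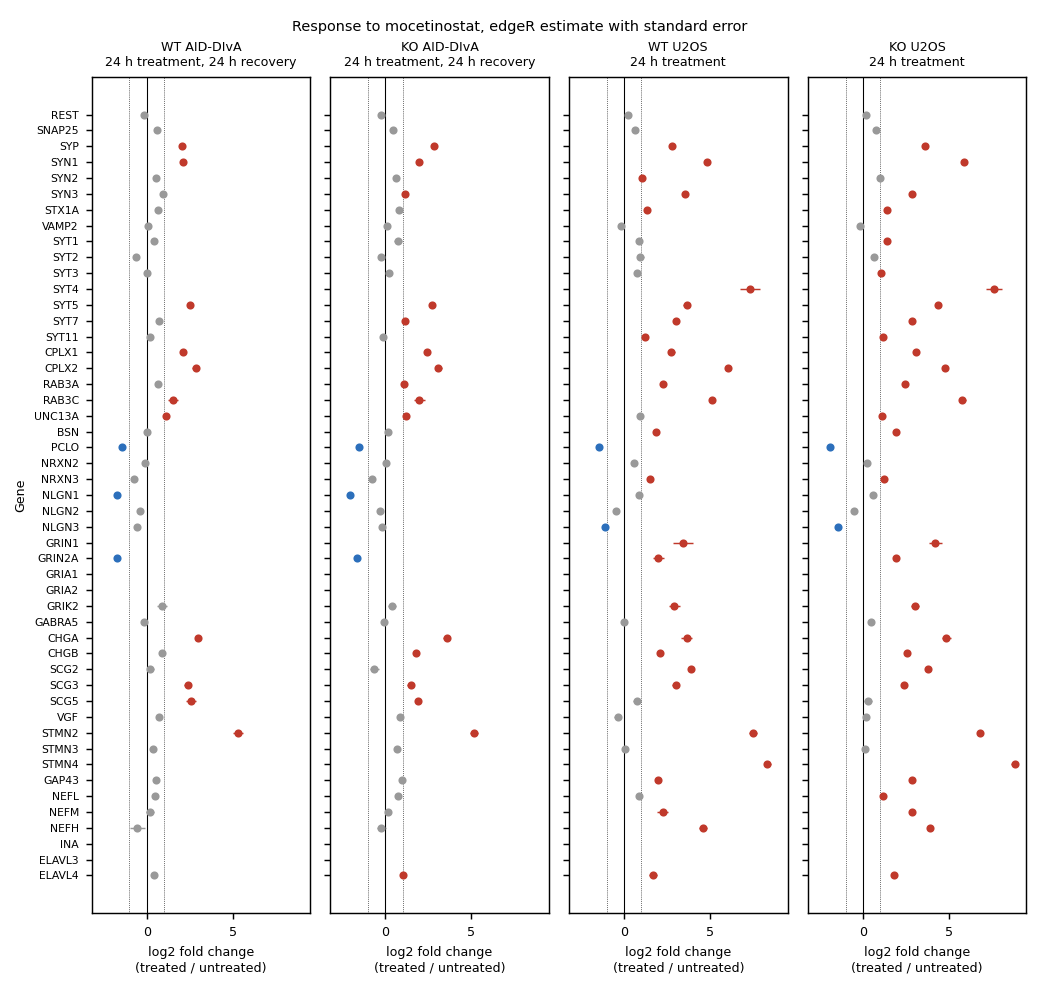
Log2 fold change of each tested gene, treated against untreated, in the 4 comparisons (points, edgeR estimate; bars, SE; red, called higher; blue, called lower; grey, not called; dotted lines at 1 and -1). The U2OS panels hold 28 and 31 red points, the AID-DIvA panels 11 and 16.

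Of the 7 synaptotagmins, 4 rose in WT and 6 in KO U2OS cells, and 1 and 2 after recovery. SYT4 (ENSG00000132872.7, chromosome 18, 40847843 to 40857615, minus strand), a synaptotagmin with weak calcium binding, was nearly silent without the drug. Its counts in untreated U2OS libraries summed to 2 in WT and 1 in KO cells, against 378 and 287 in treated ones. The ratio of scaled counts was 187 (95% exact counting interval 51.5 to 1550) in WT and 266 (47.4 to 10500) in KO cells. Without the library that stood apart the WT ratio was 124 (34.0 to 1020). SYT4 gave 0, 0 and 0.0379 CPM in the untreated WT U2OS libraries and 1.48, 2.14 and 2.28 after mocetinostat, and 0, 0 and 0.0178 in the untreated KO libraries and 1.48, 1.67 and 1.63 after mocetinostat. In AID-DIvA cells it was near 0 in every group, with 0, 0.0172 and 0.0633 CPM in untreated and 0.0188, 0.0921 and 0.0919 in recovered WT libraries, and 0.0515, 0.0137 and 0 in untreated and 0, 0 and 0.0217 in recovered KO libraries. SYT4 was tested in U2OS cells alone.

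SYT5 (ENSG00000129990.10, chromosome 19, 55682567 to 55691809, minus strand), a synaptotagmin of dense core vesicles, rose in all 4 comparisons. SYT5 gave 1.10, 1.17 and 0.588 CPM in untreated and 12, 11.6 and 12.3 in treated WT U2OS libraries, with 0.543, 0.658 and 0.677 in untreated and 14.4, 11.4 and 12.3 in treated KO libraries. In AID-DIvA cells SYT5 gave 0.849, 0.790 and 0.569 CPM in the untreated WT libraries, 4.19, 4.44 and 3.81 in WT cells after recovery, 0.618, 0.642 and 0.510 in the untreated KO libraries and 5.02, 3.47 and 3.56 in KO cells after recovery. Its changes were 3.63 ± 0.21 in WT and 4.34 ± 0.13 in KO U2OS cells before recovery, and 2.51 ± 0.15 in WT and 2.73 ± 0.17 in KO AID-DIvA cells after it (log2 fold change ± SE).

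SYT7 (ENSG00000011347.5, chromosome 11, 61282785 to 61348620, minus strand), a high affinity calcium sensor, rose in both U2OS genotypes and in KO AID-DIvA cells. SYT7 gave 8.76, 9.82 and 9.57 CPM without and 73.3, 75.6 and 75.1 with mocetinostat in WT U2OS cells, beside 11.2, 11.2 and 10.6 without and 85.7, 74.1 and 80.9 with it in KO cells. With recovery SYT7 gave 8.20, 8.01 and 8.76 CPM in untreated and 12.2, 14.4 and 14.3 in recovered WT libraries, and 9.38, 8.34 and 9.89 in untreated and 22.1, 20 and 19.4 in recovered KO libraries. Its treated U2OS libraries were the highest of the series, and its changes were 3.0 ± 0.08 and 2.87 ± 0.06 in WT and KO U2OS cells and 0.72 ± 0.08 and 1.16 ± 0.09 in WT and KO AID-DIvA cells (log2 fold change ± SE). SYT11 (ENSG00000132718.7, chromosome 1, 155829300 to 155854990, plus strand), which does not act as a calcium sensor, was already well expressed. SYT11 gave 78.7, 83.3 and 87.2 CPM in the untreated WT U2OS libraries and 193, 193 and 190 after mocetinostat, and 83.3, 82.2 and 83.6 in the untreated KO libraries and 188, 185 and 190 after mocetinostat. In AID-DIvA libraries SYT11 gave 83, 79.6 and 77.1 CPM in the untreated WT libraries, 83.6, 91.6 and 93.5 in WT cells after recovery, 94.5, 93.8 and 87 in the untreated KO libraries and 84.8, 81.5 and 84.3 in KO cells after recovery. The U2OS rise was large beside the spread of replicates, and recovered cells stood close to untreated ones, with changes of 1.22 ± 0.07 in WT and 1.18 ± 0.04 in KO U2OS cells before recovery, and 0.17 ± 0.05 in WT and -0.13 ± 0.06 in KO AID-DIvA cells after it (log2 fold change ± SE).

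SYT1 (ENSG00000067715.9, chromosome 12, 79257773 to 79845788, plus strand), the fast sensor of transmitter release, and SYT3 (ENSG00000213023.5, chromosome 19, 51124564 to 51171651, minus strand) passed both thresholds in KO U2OS cells alone. SYT1 gave 1.97, 2.15 and 1.90 CPM in untreated and 3.82, 3.81 and 3.25 in treated WT U2OS libraries, with 0.892, 1.03 and 1.14 in untreated and 2.57, 2.84 and 2.57 in treated KO libraries. SYT1 values in AID-DIvA cells were 2.34, 1.84 and 2.12 CPM in untreated and 2.61, 2.90 and 2.81 in recovered WT libraries, and 1.55, 1.65 and 1.28 in untreated and 1.71, 2.51 and 3.14 in recovered KO libraries. The changes of SYT1 were 0.86 ± 0.13 and 1.38 ± 0.15 in WT and KO U2OS cells and 0.41 ± 0.12 and 0.73 ± 0.21 in WT and KO AID-DIvA cells (log2 fold change ± SE), and on counts of its own strand the WT U2OS value was 1.01 and called. SYT3 gave 9.47, 9.06 and 8.13 CPM without and 15.9, 13.8 and 14.2 with mocetinostat in WT U2OS cells, beside 7.19, 6.36 and 7.90 without and 15.6, 14.3 and 13.9 with it in KO cells. In AID-DIvA cells SYT3 gave 6.53, 6.80 and 7.04 CPM in the untreated WT libraries, 5.86, 7.62 and 7.36 in WT cells after recovery, 5.67, 5.48 and 5.74 in the untreated KO libraries and 6.67, 6.54 and 6.44 in KO cells after recovery. SYT3 changed by 0.72 ± 0.10 in WT and 1.04 ± 0.08 in KO U2OS cells before recovery, and 0.04 ± 0.10 in WT and 0.22 ± 0.08 in KO AID-DIvA cells after it (log2 fold change ± SE), and its KO U2OS call was lost without the first treated replicate (0.99) or without the second untreated one (0.95). SYT2, also a fast sensor, had group means between 18.2 and 44.7 CPM and changes of 0.95 ± 0.18 and 0.66 ± 0.05 in WT and KO U2OS cells and -0.62 ± 0.06 and -0.23 ± 0.07 in WT and KO AID-DIvA cells (log2 fold change ± SE), none of which passed the fold threshold, with 0.74 in WT U2OS cells without the library that stood apart.

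Of the 7 genes of the release machinery, 5 rose and 1 fell in WT U2OS cells, 6 rose and 1 fell in KO U2OS cells, 4 rose and 1 fell in WT AID-DIvA cells, and 5 rose and 1 fell in KO AID-DIvA cells. Complexins clamp the SNARE complex until calcium arrives, and both rose in all 4 comparisons. CPLX1 (ENSG00000168993.10, chromosome 4, 778745 to 819986, minus strand) gave 2.17, 1.18 and 1.42 CPM in the untreated WT U2OS libraries and 10.3, 10.1 and 11.2 after mocetinostat, and 1.07, 1.37 and 1.37 in the untreated KO libraries and 12.4, 9.55 and 10.1 after mocetinostat. The AID-DIvA values of CPLX1 were 1.03, 1.19 and 1.19 CPM in untreated and 4.66, 4.90 and 5.26 in recovered WT libraries, and 0.876, 0.861 and 1.17 in untreated and 5.62, 5.62 and 4.31 in recovered KO libraries. CPLX1 changed by 2.74 ± 0.21 in WT and 3.08 ± 0.12 in KO U2OS cells before recovery, and 2.12 ± 0.12 in WT and 2.43 ± 0.16 in KO AID-DIvA cells after it (log2 fold change ± SE), and the WT U2OS value was 3.04 without the library that stood apart. CPLX2 (ENSG00000145920.10, chromosome 5, 175223313 to 175311023, plus strand) gave 0.108, 0.179 and 0.114 CPM in untreated and 9.0, 9.26 and 9.25 in treated WT U2OS libraries, with 0.194, 0.304 and 0.250 in untreated and 8.04, 6.20 and 6.79 in treated KO libraries. Its AID-DIvA values were 0.465, 0.292 and 0.253 CPM in the untreated WT libraries, 2.42, 2.30 and 2.39 in WT cells after recovery, 0.172, 0.191 and 0.245 in the untreated KO libraries and 1.57, 1.72 and 1.82 in KO cells after recovery. CPLX2 was under 1 CPM in every untreated library and changed by 6.06 ± 0.18 and 4.80 ± 0.18 in WT and KO U2OS cells and 2.85 ± 0.19 and 3.08 ± 0.20 in WT and KO AID-DIvA cells (log2 fold change ± SE).

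RAB3A (ENSG00000105649.5, chromosome 19, 18307594 to 18314884, minus strand) and RAB3C (ENSG00000152932.6, chromosome 5, 57878048 to 58155213, plus strand) are vesicle GTPases. RAB3A gave 2.42, 1.90 and 1.59 CPM without and 9.49, 9.18 and 9.43 with mocetinostat in WT U2OS cells, beside 1.67, 2.43 and 1.80 without and 11.7, 10.1 and 11 with it in KO cells. In AID-DIvA cells RAB3A gave 1.58, 1.46 and 1.46 CPM in untreated and 2.42, 2.67 and 2.10 in recovered WT libraries, and 1.39, 1.59 and 1.25 in untreated and 2.94, 2.81 and 3.34 in recovered KO libraries. RAB3A changed by 2.25 ± 0.15 in WT and 2.47 ± 0.11 in KO U2OS cells before recovery, and 0.68 ± 0.13 in WT and 1.09 ± 0.13 in KO AID-DIvA cells after it (log2 fold change ± SE). RAB3C gave 0.170, 0.138 and 0.133 CPM in the untreated WT U2OS libraries and 5.18, 5.12 and 4.80 after mocetinostat, and 0.0970, 0.0506 and 0.107 in the untreated KO libraries and 4.64, 4.80 and 4.78 after mocetinostat. RAB3C in AID-DIvA cells gave 0.202, 0.137 and 0.158 CPM in the untreated WT libraries, 0.526, 0.460 and 0.441 in WT cells after recovery, 0.0687, 0.150 and 0.113 in the untreated KO libraries and 0.428, 0.498 and 0.412 in KO cells after recovery. It rose in all 4 comparisons, but the recovered libraries stayed under 1 CPM, and the changes were 5.09 ± 0.17 and 5.79 ± 0.21 in WT and KO U2OS cells and 1.53 ± 0.28 and 1.98 ± 0.32 in WT and KO AID-DIvA cells (log2 fold change ± SE).

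UNC13A (ENSG00000130477.10, chromosome 19, 17712137 to 17799401, minus strand), which primes vesicles for fusion, rose in all groups but WT U2OS cells, where it missed the fold threshold. UNC13A gave 19.9, 34.1 and 31.9 CPM in untreated and 51.7, 58.2 and 51.6 in treated WT U2OS libraries, with 23.9, 23.3 and 24.8 in untreated and 47.9, 53 and 55.5 in treated KO libraries. After recovery UNC13A gave 10.9, 9.72 and 8.57 CPM in untreated and 21.4, 19.4 and 21.7 in recovered WT libraries, and 14.5, 13.7 and 11.9 in untreated and 37.7, 29.4 and 26.1 in recovered KO libraries. The first untreated WT U2OS library was again the low one (0.71 without it), and the changes were 0.92 ± 0.19 in WT and 1.13 ± 0.06 in KO U2OS cells before recovery, and 1.11 ± 0.09 in WT and 1.21 ± 0.12 in KO AID-DIvA cells after it (log2 fold change ± SE). Bassoon and piccolo are the giant scaffolds of the active zone, and they moved apart. BSN, bassoon (ENSG00000164061.4, chromosome 3, 49591922 to 49708978, plus strand), gave 1.84, 2.25 and 2.18 CPM without and 7.62, 7.95 and 6.96 with mocetinostat in WT U2OS cells, beside 1.82, 1.48 and 1.87 without and 6.27, 6.86 and 6.28 with it in KO cells. In AID-DIvA cells BSN gave 2.02, 2.13 and 2.20 CPM in the untreated WT libraries, 1.56, 2.30 and 2.45 in WT cells after recovery, 1.44, 1.65 and 1.68 in the untreated KO libraries and 2.11, 1.77 and 1.58 in KO cells after recovery. In counts from either strand BSN rose before recovery and overlapped with untreated libraries after it, with changes of 1.86 ± 0.12 and 1.91 ± 0.11 in WT and KO U2OS cells and -0.01 ± 0.16 and 0.18 ± 0.14 in WT and KO AID-DIvA cells (log2 fold change ± SE). Its own-strand counts, given below, were higher after recovery.

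PCLO, piccolo (ENSG00000186472.15, chromosome 7, 82383329 to 82792246, minus strand), is the member that fell in all 4 comparisons. PCLO gave 96.3, 117 and 114 CPM in the untreated WT U2OS libraries and 38, 42.2 and 36.7 after mocetinostat, and 187, 191 and 188 in the untreated KO libraries and 46.8, 52.4 and 50.6 after mocetinostat. In the AID-DIvA line PCLO gave 150, 155 and 178 CPM in untreated and 59, 61.8 and 57.7 in recovered WT libraries, and 259, 248 and 243 in untreated and 75.6, 89.1 and 98.6 in recovered KO libraries. Both the treated U2OS and the recovered AID-DIvA libraries lay below their controls, and the changes were -1.48 ± 0.10 in WT and -1.91 ± 0.05 in KO U2OS cells before recovery, and -1.42 ± 0.06 in WT and -1.51 ± 0.10 in KO AID-DIvA cells after it (log2 fold change ± SE). KO libraries of either line lay above WT libraries of the same treatment.

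Of the 5 adhesion genes, NRXN3 rose and NLGN3 fell in both U2OS genotypes, and NLGN1 fell in both AID-DIvA genotypes. Neurexins are presynaptic adhesion proteins and neuroligins their postsynaptic partners. NRXN3 (ENSG00000021645.13, chromosome 14, 78708734 to 80330762, plus strand) gave 7.42, 12.1 and 12.4 CPM in untreated and 29.6, 30.4 and 30.8 in treated WT U2OS libraries, with 10.1, 11.7 and 11.6 in untreated and 26.2, 26.5 and 25.7 in treated KO libraries. After recovery NRXN3 lay below its untreated level, with 17.8, 16.6 and 19.6 CPM in the untreated WT libraries, 9.75, 11.3 and 11.9 in WT cells after recovery, 14, 13.3 and 12.5 in the untreated KO libraries and 7.95, 8.0 and 7.48 in KO cells after recovery. The changes were 1.52 ± 0.18 and 1.23 ± 0.06 in WT and KO U2OS cells and -0.70 ± 0.08 and -0.76 ± 0.08 in WT and KO AID-DIvA cells (log2 fold change ± SE), where the falls after recovery passed the adjusted p but not the fold threshold, and the WT U2OS value was 1.32 without the library that stood apart.

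NLGN1 (ENSG00000169760.13, chromosome 3, 173114074 to 174004434, plus strand) gave 2.04, 2.64 and 2.14 CPM without and 4.22, 4.32 and 4.05 with mocetinostat in WT U2OS cells, beside 3.32, 2.72 and 2.83 without and 3.98, 4.67 and 4.76 with it in KO cells. NLGN1 after recovery gave 4.46, 4.38 and 4.86 CPM in untreated and 1.30, 1.45 and 1.34 in recovered WT libraries, and 4.43, 4.82 and 3.91 in untreated and 1.14, 1.16 and 0.911 in recovered KO libraries. Treated libraries were above untreated ones before recovery and below them after it, with changes of 0.89 ± 0.13 in WT and 0.61 ± 0.11 in KO U2OS cells before recovery, and -1.74 ± 0.11 in WT and -2.03 ± 0.14 in KO AID-DIvA cells after it (log2 fold change ± SE), of which only the falls were called. NLGN3 (ENSG00000196338.8, chromosome X, 70364681 to 70391051, plus strand) gave 8.31, 10.8 and 10.3 CPM in the untreated WT U2OS libraries and 4.66, 4.84 and 4.12 after mocetinostat, and 9.77, 8.77 and 9.93 in the untreated KO libraries and 3.13, 3.10 and 4.02 after mocetinostat. NLGN3 in AID-DIvA cells gave 7.33, 6.39 and 5.95 CPM in the untreated WT libraries, 3.81, 4.42 and 5.08 in WT cells after recovery, 6.15, 6.27 and 5.85 in the untreated KO libraries and 6.04, 5.78 and 4.40 in KO cells after recovery. NLGN3 changed by -1.10 ± 0.13 and -1.46 ± 0.10 in WT and KO U2OS cells and -0.55 ± 0.12 and -0.17 ± 0.11 in WT and KO AID-DIvA cells (log2 fold change ± SE). NLGN2, the neuroligin of inhibitory synapses, had group means between 139 and 221 CPM and NRXN2 between 53.7 and 86.9 CPM, and neither was called in a treatment comparison. NLGN2 changed by -0.45 ± 0.07 in WT and -0.53 ± 0.04 in KO U2OS cells before recovery, and -0.39 ± 0.06 in WT and -0.30 ± 0.07 in KO AID-DIvA cells after it (log2 fold change ± SE), and NRXN2 by 0.59 ± 0.08 and 0.26 ± 0.06 in WT and KO U2OS cells and -0.08 ± 0.08 and 0.07 ± 0.09 in WT and KO AID-DIvA cells (log2 fold change ± SE).

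Of the 6 receptor subunits, 3 rose in each U2OS genotype and none rose after recovery, when 1 was lower. GRIN1 (ENSG00000176884.10, chromosome 9, 140032842 to 140063207, plus strand), the subunit that every NMDA receptor needs, gave 0.186, 0.0275 and 0.0190 CPM in untreated and 0.779, 0.952 and 0.856 in treated WT U2OS libraries, with 0.0582, 0.0169 and 0.0891 in untreated and 1.01, 1.15 and 0.953 in treated KO libraries. In AID-DIvA cells GRIN1 was at or near 0, with 0.0202, 0.0515 and 0.0316 CPM in untreated and 0, 0.0230 and 0.0368 in recovered WT libraries, and 0.0515, 0.0137 and 0 in untreated and 0, 0.0755 and 0 in recovered KO libraries. Its U2OS counts rose from 15 to 164 over the 3 WT libraries, a ratio of 10.8 (95% exact counting interval 6.37 to 19.8), and from 9 to 186 in KO libraries, a ratio of 19.2 (9.87 to 42.5). Of the 15 untreated WT counts 12 came from the library that stood apart, and without it the counts were 3 and 164, a ratio of 35.7 (12 to 175). Counting intervals here cover counting error only.

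GRIN2A (ENSG00000183454.9, chromosome 16, 9852376 to 10276611, minus strand), another NMDA receptor subunit, rose in U2OS cells and fell in AID-DIvA cells. GRIN2A gave 0.619, 1.61 and 1.91 CPM without and 4.97, 5.71 and 5.69 with mocetinostat in WT U2OS cells, beside 1.45, 1.35 and 1.32 without and 4.72, 5.02 and 5.76 with it in KO cells. AID-DIvA libraries gave 2.28, 2.46 and 2.69 CPM in the untreated WT libraries, 0.620, 0.645 and 0.938 in WT cells after recovery, 1.96, 2.01 and 2.02 in the untreated KO libraries and 0.627, 0.589 and 0.715 in KO cells after recovery for GRIN2A. Treated libraries lay above every untreated one before recovery and below every untreated one after it. The changes were 2.0 ± 0.33 in WT and 1.92 ± 0.12 in KO U2OS cells before recovery, and -1.73 ± 0.17 in WT and -1.63 ± 0.14 in KO AID-DIvA cells after it (log2 fold change ± SE), all 4 called, and the WT U2OS value was 1.65 without the library that stood apart. GRIK2 (ENSG00000164418.15, chromosome 6, 101846664 to 102517958, plus strand), a kainate receptor subunit, gave 0.186, 0.441 and 0.190 CPM in the untreated WT U2OS libraries and 2.35, 1.98 and 1.95 after mocetinostat, and 0.368, 0.253 and 0.232 in the untreated KO libraries and 2.59, 2.07 and 2.30 after mocetinostat. GRIK2 in AID-DIvA cells gave 0.162, 0.189 and 0.253 CPM in untreated and 0.451, 0.345 and 0.349 in recovered WT libraries, and 0.326, 0.369 and 0.321 in untreated and 0.371, 0.528 and 0.412 in recovered KO libraries. GRIK2 rose before recovery, with changes of 2.91 ± 0.32 and 3.04 ± 0.21 in WT and KO U2OS cells and 0.91 ± 0.29 and 0.40 ± 0.24 in WT and KO AID-DIvA cells (log2 fold change ± SE) and a WT U2OS value of 2.66 without the library that stood apart. GABRA5, a GABA receptor subunit, had group means between 10.9 and 16.3 CPM and was called in no treatment comparison, with changes of 0.01 ± 0.08 and 0.46 ± 0.06 in WT and KO U2OS cells and -0.15 ± 0.08 and -0.09 ± 0.08 in WT and KO AID-DIvA cells (log2 fold change ± SE). The AMPA receptor genes GRIA1 and GRIA2 had group means between 0.0148 and 0.0713 and between 0.0163 and 0.110 CPM and were not tested.

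Of the 6 granins, 4 rose in each U2OS genotype, and 3 and 4 after recovery. Chromogranin A, CHGA (ENSG00000100604.8, chromosome 14, 93389425 to 93401638, plus strand), drives the making of dense core granules. CHGA gave 1.47, 0.758 and 0.550 CPM in untreated and 11.2, 10.7 and 12.7 in treated WT U2OS libraries, with 0.233, 0.287 and 0.196 in untreated and 9.23, 5.44 and 6.28 in treated KO libraries. In AID-DIvA cells CHGA gave 0.768, 0.636 and 0.696 CPM in the untreated WT libraries, 4.83, 5.75 and 5.81 in WT cells after recovery, 0.240, 0.178 and 0.227 in the untreated KO libraries and 2.71, 2.69 and 2.15 in KO cells after recovery. CHGA rose in all 4 comparisons, by 3.63 ± 0.30 in WT and 4.86 ± 0.25 in KO U2OS cells before recovery, and 2.97 ± 0.14 in WT and 3.56 ± 0.19 in KO AID-DIvA cells after it (log2 fold change ± SE), with 4.12 in WT U2OS cells without the library that stood apart, and the KO libraries were below WT libraries in each untreated pair of groups. CHGB (ENSG00000089199.5, chromosome 20, 5892076 to 5906007, plus strand) gave 2.71, 2.78 and 3.73 CPM without and 12.3, 13.4 and 13.4 with mocetinostat in WT U2OS cells, beside 2.27, 2.55 and 2.48 without and 14.6, 14.4 and 14.2 with it in KO cells. For recovered cells and their controls CHGB gave 2.36, 2.61 and 2.67 CPM in untreated and 4.75, 4.60 and 4.73 in recovered WT libraries, and 1.77, 1.75 and 1.49 in untreated and 6.87, 5.37 and 5.12 in recovered KO libraries. CHGB changed by 2.10 ± 0.14 and 2.57 ± 0.08 in WT and KO U2OS cells and 0.89 ± 0.10 and 1.77 ± 0.13 in WT and KO AID-DIvA cells (log2 fold change ± SE).

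SCG2 (ENSG00000171951.4, chromosome 2, 224461658 to 224467221, minus strand), precursor of secretoneurin, gave 0.619, 0.702 and 0.588 CPM in the untreated WT U2OS libraries and 8.62, 9.44 and 10 after mocetinostat, and 0.310, 0.793 and 0.606 in the untreated KO libraries and 7.92, 7.64 and 7.97 after mocetinostat. In AID-DIvA libraries SCG2 gave 0.909, 0.722 and 0.728 CPM in the untreated WT libraries, 1.05, 0.737 and 0.901 in WT cells after recovery, 0.481, 0.888 and 0.793 in the untreated KO libraries and 0.513, 0.393 and 0.520 in KO cells after recovery. SCG2 was called higher in both U2OS genotypes and in no AID-DIvA genotype, with changes of 3.88 ± 0.13 in WT and 3.76 ± 0.16 in KO U2OS cells before recovery, and 0.22 ± 0.19 in WT and -0.64 ± 0.27 in KO AID-DIvA cells after it (log2 fold change ± SE). SCG3 (ENSG00000104112.4, chromosome 15, 51973550 to 52013223, plus strand), which sorts granins into granules, gave 0.232, 0.289 and 0.341 CPM in untreated and 2.06, 2.16 and 2.63 in treated WT U2OS libraries, with 0.427, 0.388 and 0.481 in untreated and 2.34, 2.44 and 2.15 in treated KO libraries. SCG3 in AID-DIvA cells gave 0.202, 0.292 and 0.237 CPM in untreated and 1.33, 1.31 and 1.20 in recovered WT libraries, and 0.464, 0.478 and 0.529 in untreated and 1.11, 1.27 and 1.69 in recovered KO libraries. SCG3 rose in all 4 comparisons, by 3.01 ± 0.21 and 2.42 ± 0.18 in WT and KO U2OS cells and 2.38 ± 0.21 and 1.48 ± 0.21 in WT and KO AID-DIvA cells (log2 fold change ± SE).

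SCG5 (ENSG00000166922.4, chromosome 15, 32933877 to 32989299, plus strand), a chaperone of a prohormone convertase, was the 1 member called higher after recovery and not before. SCG5 gave 1.63, 0.964 and 1.59 CPM without and 2.32, 2.02 and 2.55 with mocetinostat in WT U2OS cells, beside 0.737, 0.607 and 0.909 without and 1.13, 0.788 and 0.862 with it in KO cells. After recovery SCG5 gave 1.68, 1.86 and 1.68 CPM in the untreated WT libraries, 14.3, 8.91 and 7.47 in WT cells after recovery, 0.825, 0.970 and 0.887 in the untreated KO libraries and 2.91, 3.68 and 3.40 in KO cells after recovery. The WT recovered libraries spread from 7.47 to 14.3 CPM, all above the controls, and the changes were 0.74 ± 0.22 in WT and 0.31 ± 0.22 in KO U2OS cells before recovery, and 2.57 ± 0.27 in WT and 1.91 ± 0.15 in KO AID-DIvA cells after it (log2 fold change ± SE). VGF, a neurotrophin induced granin precursor, had group means between 56.2 and 169 CPM and changes of -0.37 ± 0.18 and 0.17 ± 0.06 in WT and KO U2OS cells and 0.71 ± 0.05 and 0.85 ± 0.12 in WT and KO AID-DIvA cells (log2 fold change ± SE), none past the fold threshold, and the WT U2OS value was -0.11 without the library that stood apart.

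Of the 4 growth cone and microtubule genes, STMN2, STMN4 and GAP43 rose in both U2OS genotypes, and STMN2 alone after recovery. Stathmins bind tubulin, and STMN2 (ENSG00000104435.9, chromosome 8, 80523049 to 80578410, plus strand) is the one most typical of growing axons. STMN2 gave 0.0774, 0.0826 and 0.0190 CPM in the untreated WT U2OS libraries and 11.4, 11.5 and 11.9 after mocetinostat, and 0.0582, 0.101 and 0.160 in the untreated KO libraries and 12.4, 12.4 and 12.5 after mocetinostat. In AID-DIvA cells STMN2 gave 0, 0.172 and 0.127 CPM in untreated and 4.40, 4.14 and 4.10 in recovered WT libraries, and 0.275, 0.123 and 0.0755 in untreated and 5.87, 5.66 and 5.18 in recovered KO libraries. Summed over 3 libraries, its counts rose from 12 to 2234 in WT U2OS cells, a ratio of 184 (95% exact counting interval 105 to 357), and from 18 to 637 in WT AID-DIvA cells, a ratio of 40.0 (25.1 to 68.0). Ratios in KO cells were 115 (72.9 to 195) before and 35.4 (24.4 to 53.1) after recovery. The fitted changes were 7.49 ± 0.23 in WT and 6.83 ± 0.16 in KO U2OS cells before recovery, and 5.30 ± 0.29 in WT and 5.13 ± 0.23 in KO AID-DIvA cells after it (log2 fold change ± SE).

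STMN4 (ENSG00000015592.12, chromosome 8, 27092840 to 27115937, minus strand) had few counts in AID-DIvA cells. STMN4 gave 0.0774, 0.0275 and 0.0758 CPM in untreated and 18.1, 18.2 and 20.9 in treated WT U2OS libraries, with 0.0194, 0.118 and 0.0178 in untreated and 28.5, 23 and 24.4 in treated KO libraries. Recovered cells and controls gave 0.0404, 0.0515 and 0.0158 CPM in the untreated WT libraries, 0.188, 0.115 and 0.221 in WT cells after recovery, 0.0344, 0.0137 and 0 in the untreated KO libraries and 0.0855, 0.0755 and 0.108 in KO cells after recovery. Counts rose from 11 to 3692 in WT U2OS cells, a ratio of 332 (186 to 666) or, without the library that stood apart, 402 (185 to 1100), and from 9 to 4563 in KO U2OS cells, a ratio of 470 (247 to 1030). After recovery they stood at 27 against 6 in WT cells, a ratio of 5.09 (2.06 to 15.1), and at 13 against 3 in KO cells, a ratio of 5.42 (1.49 to 29.6).

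**Figure D3:**
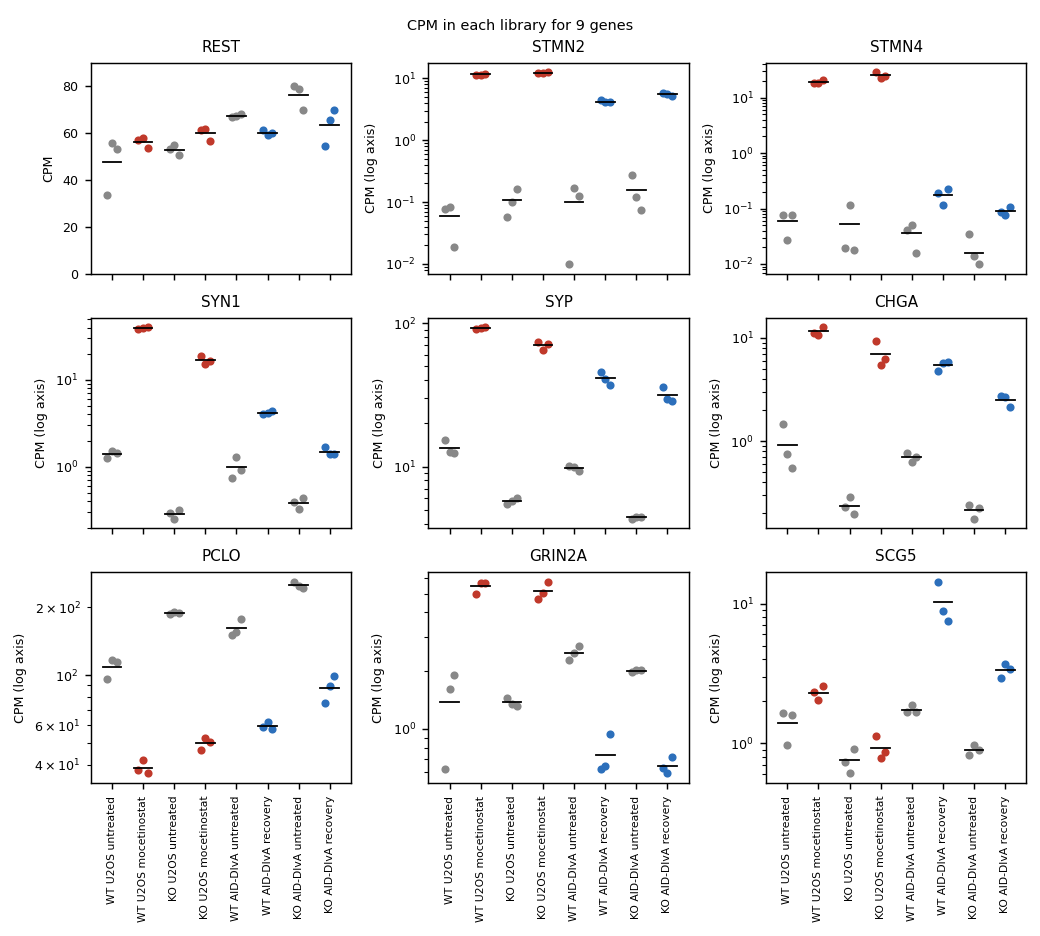
CPM in each library (points; black bars, group means) for REST (linear axis) and for STMN2, STMN4, SYN1, SYP, CHGA, PCLO, GRIN2A and SCG5 (log axes; 0 drawn at 0.01), in untreated (grey), treated U2OS (red) and recovered AID-DIvA libraries (blue). In recovered AID-DIvA libraries STMN2 lies between 4.1 and 5.87 CPM and STMN4 at 0.221 or below, and GRIN2A lies above its controls in U2OS and below them in AID-DIvA libraries.

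GAP43 (ENSG00000172020.8, chromosome 3, 115342171 to 115440337, plus strand), a membrane protein of growth cones, gave 6.90, 5.23 and 4.87 CPM without and 20.5, 23.5 and 21.9 with mocetinostat in WT U2OS cells, beside 3.01, 2.88 and 2.80 without and 21.4, 22.1 and 19.5 with it in KO cells. In AID-DIvA cells GAP43 gave 4.04, 4.66 and 4.67 CPM in untreated and 6.29, 6.12 and 6.91 in recovered WT libraries, and 2.27, 2.99 and 2.78 in untreated and 5.56, 5.09 and 5.29 in recovered KO libraries. GAP43 changed by 1.96 ± 0.14 and 2.86 ± 0.08 in WT and KO U2OS cells and 0.54 ± 0.09 and 0.98 ± 0.12 in WT and KO AID-DIvA cells (log2 fold change ± SE), and the values after recovery missed the fold threshold. STMN3 had group means between 31.7 and 63.8 CPM and was called in no treatment comparison, with changes of 0.08 ± 0.13 in WT and 0.12 ± 0.06 in KO U2OS cells before recovery, and 0.39 ± 0.07 in WT and 0.68 ± 0.10 in KO AID-DIvA cells after it (log2 fold change ± SE).

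Of the 4 intermediate filament genes, 2 rose in WT and 3 in KO U2OS cells, and none after recovery. NEFL (ENSG00000104725.9, chromosome 8, 24808468 to 24814624, minus strand), the light neurofilament chain, was high in every group. NEFL gave 101, 91.3 and 88.4 CPM in the untreated WT U2OS libraries and 166, 168 and 175 after mocetinostat, and 109, 114 and 114 in the untreated KO libraries and 262, 241 and 247 after mocetinostat. In AID-DIvA libraries NEFL gave 92.3, 92.2 and 91.2 CPM in the untreated WT libraries, 117, 135 and 135 in WT cells after recovery, 106, 108 and 107 in the untreated KO libraries and 182, 174 and 176 in KO cells after recovery. NEFL changed by 0.87 ± 0.08 and 1.16 ± 0.05 in WT and KO U2OS cells and 0.50 ± 0.06 and 0.73 ± 0.05 in WT and KO AID-DIvA cells (log2 fold change ± SE). NEFM (ENSG00000104722.9, chromosome 8, 24770525 to 24776607, plus strand), the medium chain, gave 0.263, 0.758 and 0.644 CPM in untreated and 2.41, 2.80 and 2.71 in treated WT U2OS libraries, with 0.873, 0.523 and 0.446 in untreated and 4.44, 3.96 and 4.66 in treated KO libraries. NEFM in AID-DIvA cells gave 0.545, 0.653 and 0.506 CPM in untreated and 0.545, 0.737 and 0.680 in recovered WT libraries, and 0.653, 0.683 and 0.548 in untreated and 0.656, 0.755 and 0.672 in recovered KO libraries. NEFM changed by 2.25 ± 0.31 in WT and 2.85 ± 0.17 in KO U2OS cells before recovery, and 0.20 ± 0.21 in WT and 0.16 ± 0.18 in KO AID-DIvA cells after it (log2 fold change ± SE), and by 1.90 in WT U2OS cells without the library that stood apart. NEFH (ENSG00000100285.9, chromosome 22, 29876219 to 29887379, plus strand), the heavy chain, gave 0.418, 0.248 and 0.360 CPM without and 7.01, 7.90 and 9.46 with mocetinostat in WT U2OS cells, beside 0.543, 0.405 and 0.535 without and 8.32, 7.11 and 7.06 with it in KO cells. NEFH in AID-DIvA cells gave 0.566, 0.481 and 0.285 CPM in the untreated WT libraries, 0.413, 0.0691 and 0.368 in WT cells after recovery, 0.464, 0.711 and 0.453 in the untreated KO libraries and 0.485, 0.438 and 0.499 in KO cells after recovery. NEFH changed by 4.59 ± 0.21 and 3.93 ± 0.14 in WT and KO U2OS cells and -0.55 ± 0.42 and -0.23 ± 0.24 in WT and KO AID-DIvA cells (log2 fold change ± SE), and after recovery its groups overlapped. INA had group means between 0.00527 and 0.0351 CPM and was not tested.

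The strand of the reads matters for NEFM, NEFH, bassoon and GRIN1. The kit keeps the strand, and reads of a gene's own strand fall in the reverse-strand column of the deposited counts. In untreated U2OS libraries 98.4% of the stranded NEFH counts in WT and 96.3% in KO cells lay on the forward strand, opposite to the gene, against 4.76% and 7.85% in treated ones. Own-strand NEFH counts summed to 1 in untreated and 1501 in treated WT libraries, a ratio of 1500 (95% exact counting interval 268 to 59100), and to 3 and 1244 in KO libraries, a ratio of 386 (132 to 1870). Without the library that stood apart the WT ratio was 984 (176 to 38900). The counts from either strand gave ratios of 24.4 (19.0 to 31.8) and 15.3 (12.2 to 19.3). Own-strand NEFM counts rose from 16 to 377 in WT and from 19 to 729 in KO U2OS cells, ratios of 23.5 (14.3 to 41.5) and 35.7 (22.7 to 59.6), in place of 4.72 and 7.23. Own-strand BSN counts rose from 117 to 1319 and from 75 to 1073, ratios of 11.2 (9.29 to 13.7) and 13.3 (10.5 to 17.0), in place of 3.56 and 3.75. After recovery own-strand BSN counts stood at 223 against 167 in WT AID-DIvA cells, a ratio of 1.51 (1.23 to 1.86) in place of 0.985. In KO AID-DIvA cells they stood at 186 against 124, a ratio of 1.88 (1.49 to 2.37) in place of 1.12. Own-strand GRIN1 counts rose from 3 to 110 and from 1 to 107, ratios of 36.5 (12.2 to 180) and 99.5 (17.5 to 3970), in place of 10.8 and 19.2, and 72.1 (12.7 to 2870) in WT cells without the library that stood apart. With own-strand counts NEFM was also called higher in KO AID-DIvA cells, at a log2 fold change of 1.89 (adjusted p = 0.00392, edgeR), where the counts from either strand gave 0.16. Its own-strand counts there were 4, 6 and 4 in untreated and 10, 14 and 18 in recovered libraries. NEFM thus passed the filter on low counts through the recovered libraries and had to differ to be tested.

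ELAVL4 (ENSG00000162374.12, chromosome 1, 50513686 to 50669458, plus strand), a neuronal RNA-binding protein, gave 0.666, 0.510 and 0.777 CPM in the untreated WT U2OS libraries and 1.62, 2.24 and 2.28 after mocetinostat, and 0.562, 0.573 and 0.802 in the untreated KO libraries and 1.98, 2.22 and 2.56 after mocetinostat. In AID-DIvA cells ELAVL4 gave 0.788, 0.790 and 0.775 CPM in untreated and 1.05, 1.08 and 1.01 in recovered WT libraries, and 0.533, 0.437 and 0.510 in untreated and 1.05, 0.951 and 1.04 in recovered KO libraries. ELAVL4 changed by 1.67 ± 0.23 in WT and 1.81 ± 0.18 in KO U2OS cells before recovery, and 0.43 ± 0.16 in WT and 1.04 ± 0.17 in KO AID-DIvA cells after it (log2 fold change ± SE), and its KO AID-DIvA call was lost without the second untreated replicate (0.95). ELAVL3, a close relative, had group means between 0.0169 and 0.103 CPM and was not tested.

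Set side by side, 27 members rose in both U2OS genotypes and 11 in both AID-DIvA genotypes. The shares of all genes called in several comparisons at once, or without overlap of libraries, were not counted. In single comparisons 13.6% and 14.6% of all genes rose in WT and KO U2OS cells, and 4.86% and 4.9% in WT and KO AID-DIvA cells. SYP, SYN1, SYT5, CPLX1, CPLX2, RAB3C, CHGA, SCG3 and STMN2, 9 genes, rose in all 4 comparisons. Among them STMN2 and RAB3C passed the filter through their treated libraries, and CPLX2 and CHGA did so in part, as said. STX1A, SYT4, SYT11, BSN, NRXN3, GRIN1, GRIN2A, GRIK2, SCG2, STMN4, GAP43, NEFM and NEFH, 13 genes, were called higher in both U2OS genotypes and in neither AID-DIvA genotype at these thresholds. Of these, SYT4, GRIN1 and STMN4 were not tested in AID-DIvA cells, and for STX1A, GRIK2, STMN4 and GAP43 every recovered library still lay above every untreated one in both genotypes. The response in U2OS cells minus that in AID-DIvA cells was tested within each genotype, as a difference of log2 fold changes. It was above 0 for 30 members and below 0 for 3 in WT, adjusted p below 0.05 by edgeR, against 21.7% and 20.5% of 22238 genes, and for 36 and 6 members in KO cells, against 27.7% and 24.8% of 21947. The members tested include SYT4, GRIN1, STMN4, STMN2 and RAB3C, which passed the filter through treated libraries alone. With 1 library left out, the GRIN1 call was lost in 2 refits in WT and 6 in KO cells. The STMN2 call was lost in 2 and 1, that of SYT4 in 1 in WT and that of STMN4 in 1 in KO cells. Without the first untreated WT U2OS library the WT counts were 33 and 4, with REST, CPLX1 (0.93) and CHGA (1.15) added above 0 and UNC13A (-0.39) below it.

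**Figure D4:**
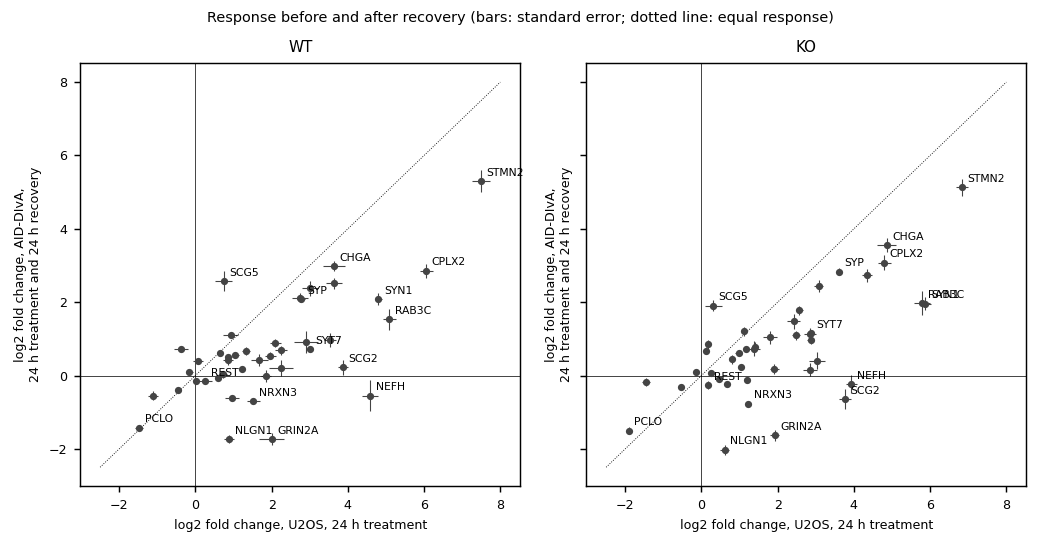
Log2 fold change in U2OS cells after 24 h of mocetinostat (x axis) against that in AID-DIvA cells after a further 24 h of recovery (y axis), for WT (left) and KO (right). Points are genes tested in both, bars are SE and the dotted line marks equal response. STMN2 lies furthest right in each panel, NEFH and SCG2 lie near 0 on the y axis, and NLGN1 and GRIN2A lie below it.

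The NEFH response differed by 5.15 ± 0.52 in WT and 4.18 ± 0.29 in KO cells. SCG2 differed by 3.67 ± 0.23 and 4.42 ± 0.34, RAB3C by 3.56 ± 0.32 and 3.82 ± 0.47, and SYN1 by 2.72 ± 0.20 and 3.93 ± 0.28. Each of these 4 genes rose further in the unrecovered U2OS cells. RAB3C was tested through its treated libraries, as said, and had to differ to be tested. GRIN2A differed by 3.75 ± 0.40 in WT and 3.57 ± 0.19 in KO cells, with a rise before recovery and a fall after it. NLGN1 differed by 2.63 ± 0.17 and 2.65 ± 0.18. SYP differed by 0.71 ± 0.13 and 0.79 ± 0.13. SCG5, NLGN3 and VGF had differences below 0 in both genotypes, of -1.81 ± 0.35 and -1.58 ± 0.26 for SCG5, -0.54 ± 0.18 and -1.28 ± 0.16 for NLGN3, and -1.08 ± 0.20 and -0.67 ± 0.15 for VGF. The NLGN3 call in WT cells was lost in 6 refits that each left out 1 library (adjusted p from 0.0511 to 0.0855, edgeR). For REST the difference was 0.42 ± 0.18 in WT (adjusted p = 0.0826, edgeR) and 0.46 ± 0.11 in KO cells (adjusted p = 0.00203, edgeR), and 0.22 in WT cells without the library that stood apart (adjusted p = 0.00493, edgeR).

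In untreated cells, the same 3 members were lower in KO than in WT cells of each line, and none was higher, at the thresholds used. SYP differed by -1.23 ± 0.11 on the log2 scale in KO U2OS and -1.17 ± 0.07 in KO AID-DIvA cells. SYN1 differed by -2.30 ± 0.21 and -1.41 ± 0.24. CHGA differed by -1.95 ± 0.42 and -1.73 ± 0.24. Of all genes tested, 2.84% were called lower and 1.42% higher in U2OS cells and 2.3% and 2.27% in AID-DIvA cells, and the 3 members were the only ones of 49 called in either line. The CHGA call in U2OS cells was lost when any 1 of the untreated KO libraries was left out, with values from -2.11 to -1.83, and was -1.46 without the first untreated WT library. They are among the 9 members that hold an RE1 match without a mismatch, of which SNAP25, CHGB, NEFM and SYT5 were tested and not called and SYT4 and GRIN1 were not tested. PCLO differed the other way, by 0.78 ± 0.09 and 0.61 ± 0.05, short of the fold threshold.

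The interaction term tested whether the response to mocetinostat differed between KO and WT cells. In AID-DIvA cells it was above 0, a larger rise in KO cells, for SYP (0.76 ± 0.12, adjusted p = 0.00551, edgeR) and CHGB (0.89 ± 0.16, adjusted p = 0.00877, edgeR), 2 of 49 against 0.762% of 21265 genes, and below 0 for none, against 0.451%. In U2OS cells it was above 0 for SYP (0.84 ± 0.12), SYN1 (1.08 ± 0.19), GABRA5 (0.46 ± 0.09) and GAP43 (0.91 ± 0.17), 4 of 49 against 1.1% of 22647 genes, and below 0 for none, against 1.06%. The GABRA5 call was lost in 7 refits that each left out 1 library, with values from 0.43 to 0.47 (adjusted p from 0.0506 to 0.0745, edgeR). For SYP, SYN1 and GAP43 the untreated KO level was the lower one, as given above. These terms share the untreated libraries with the comparison of untreated genotypes. Without the first untreated WT U2OS library the U2OS counts were 9 above 0 and 2 below 0, beside 1034 and 1057 of all genes. UNC13A, CHGB, VGF, NEFL and NEFM were then added above 0, and PCLO and NRXN2 below it.

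Other genes of the same kind were read from lists made by hand, also with earlier results of these data known. Some of them passed the filter on low counts through treated libraries, and such genes had to differ to be tested. Of the 32 REST targets below, 29 in WT and 27 in KO U2OS cells were tested with treatment, and 24 between the untreated groups. For the 42 family members these numbers were 35, 35 and 32. Of 32 other neuronal genes described as REST targets, 18 rose and 2 fell in each U2OS genotype, and 5 rose and 1 fell in WT and 8 rose and none fell in KO AID-DIvA cells. L1CAM, a neuronal adhesion protein, was called higher in KO cells of either line, by 1.72 ± 0.05 in U2OS and 1.51 ± 0.10 in AID-DIvA cells, and was also higher in WT cells, by 0.78 ± 0.09 and 0.78 ± 0.11, short of the fold threshold. Its untreated KO level was the lower one, by a log2 difference of -1.30 ± 0.10 in U2OS, called, and -0.81 ± 0.06 in AID-DIvA cells, not called, and treated U2OS cells held 200 ± 3.86 CPM in WT and 156 ± 10.2 in KO. Of 42 other members of the same gene families, 15 rose in WT and 16 in KO U2OS cells with 1 lower in each, and 5 and 7 rose with 2 lower after recovery. GABRA2, a GABA receptor subunit, went from 7.12 ± 1.03 to 35 ± 1.18 CPM (SD, n = 3) in WT U2OS cells and RAB3B, a vesicle GTPase, from 52 ± 12.4 to 104 ± 3.09. The RAB3B call in WT cells, at 1.01 ± 0.16, was lost without the library that stood apart, at 0.82.

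Of 28 exocytosis genes that most cells express, such as SNAP23, VAMP3 and the exocyst, none rose in any of the 4 comparisons, and EXOC7 in KO U2OS cells was the 1 that fell (-1.01 ± 0.05). The median log2 fold change of these 28 was -0.03 in WT and -0.07 in KO U2OS cells. Of 23 proneural and neuronal transcription factors, 4 (17.4%) rose and 2 fell in WT U2OS cells (11 tested) and 6 (26.1%) rose and 1 fell in KO U2OS cells (12 tested). Of all genes tested, 13.6% rose and 5.06% fell in WT and 14.6% rose and 5.77% fell in KO U2OS cells. These are shares of genes tested, while 17.4% and 26.1% are shares of genes listed, so they cannot be compared directly. Without the library that stood apart, 5 rose and 2 fell in WT U2OS cells (13 tested). NEUROD2 went from 0.118 ± 0.0413 to 2.44 ± 0.0680 CPM and NEUROG3 from 0.184 ± 0.136 to 1.87 ± 0.146 in WT U2OS cells. Both were low without the drug. Of the 23, 8 passed the filter on low counts between the untreated U2OS groups. Some of those tested with treatment thus passed through treated libraries and had to differ to be tested. After recovery 8 of the 23 were tested in WT and 7 in KO cells, where none was called higher and 2 in WT and 1 in KO cells were lower, among them EBF1 (-1.06 ± 0.14 and -1.12 ± 0.10). EBF3 was called in KO U2OS cells (1.45 ± 0.09) and was at 0.88 ± 0.12 in WT U2OS cells, short of the fold threshold. Of 11 general neuron markers, 7 rose in each U2OS genotype and none fell. In each genotype 9 were tested with treatment, and 7 were tested between the untreated U2OS groups. Some thus passed the filter through treated libraries and had to differ to be tested. Without the library that stood apart, 8 rose in WT cells (10 tested). The summed level of the 11 went from between 314 and 329 to between 638 and 669 CPM per library in WT U2OS cells. In KO U2OS cells it went from 329 to 346 to 660 to 698 CPM, in WT AID-DIvA cells from 179 to 186 to 271 to 308 and in KO AID-DIvA cells from 207 to 219 to 359 to 399 (untreated, then treated libraries, lowest to highest). After recovery 2 of the 11 were called higher and none lower in each AID-DIvA genotype, against 4.86% and 4.9% of all genes higher. By adjusted p alone 5 were higher and 1 lower in each genotype, so the sums do not stand for every marker. SLC17A6 and NEUROD1 had no counts in untreated WT U2OS cells and in any untreated AID-DIvA group. Whether these marker changes bear on the members was not tested.

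**Figure D5:**
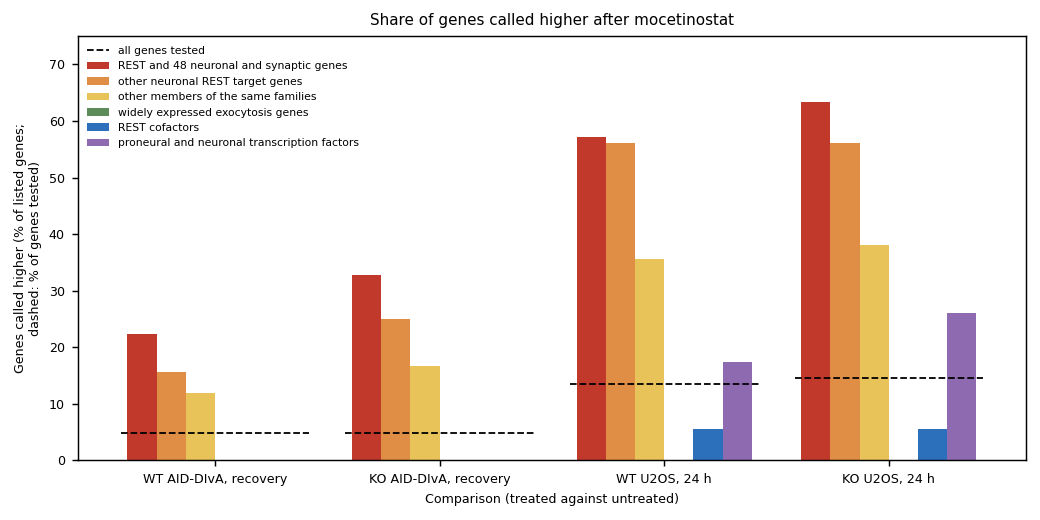
Percent of the genes of each list called higher after mocetinostat (bars; log2 fold change above 1 and adjusted p below 0.05) in the 4 comparisons, with the percent of all tested genes as a dashed line. The 49 genes and the 2 lists of related neuronal genes stand above the line in each comparison, and the exocytosis genes have no bar.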

How the data were processed

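RNA was sequenced from 24 libraries in 8 groups of 3. The authors sequenced paired reads of stranded total RNA, aligned them to hg19/GRCh37 with STAR and counted with featureCounts. The gene identifiers carry older version numbers than the annotation named in the methods. The deposited values used here are raw counts per gene from either strand, neither normalized nor pooled. Counts of each strand served as an alternative, and the deposited FPKM and TPM columns were not used. Counting from either strand drops fragments shared with an overlapping gene and keeps antisense fragments.

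The counts were fitted in R 4.3.3 with edgeR 4.0.16 (TMM, filterByExpr, robust quasi-likelihood) over all genes, with Benjamini-Hochberg adjustment. Each comparison of a pair of groups used its 6 libraries, and interactions used 12. Calls needed an adjusted p below 0.05 and, outside interactions, a log2 fold change beyond 1. Standard errors are the log2 value over the square root of the F statistic. Values in every library are given for REST and for each member called in a treatment comparison with a group mean of at least 1 CPM, 37 of the 49. From each other list up to 4 called genes with the highest group mean are named, or, where none was called, 2 genes. Some genes that this rule names are not reported here. The members and lists were chosen with earlier results of these data known. Coordinates of genes are those of the deposited tables, and exon labels of RE1 matches are from GENCODE v44lift37. The alternatives were DESeq2 1.42.0, its size factors, other filters, 12 libraries in one fit, no fold threshold, reverse-strand counts, the replicate number as a block, and each library left out. In a test on simulated data that moved 200 genes by 1.5 (log2), 93.5% of these were found for WT U2OS cells (21797 genes) with 1.06% of calls false, and 81.5% for the WT difference between responses (22238 genes) with 7.39% false.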

Additional observations from a re-analysis of the deposited data

Results flagged for a closer look

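The response to mocetinostat differed between KO and WT cells for SYP in both lines, by the interaction test, at 0.76 on the log2 scale in AID-DIvA and 0.84 in U2OS cells. CHGB differed in AID-DIvA cells, at 0.89. SYN1 at 1.08, GAP43 at 0.91 and GABRA5 at 0.46 differed in U2OS cells. The GABRA5 call was lost in 7 of the refits that left out 1 library (adjusted p from 0.0506 to 0.0745, edgeR). The log2 fold change was higher in KO than in WT cells for each of them, and GABRA5 had a log2 fold change of 0.01 ± 0.08 in WT and 0.46 ± 0.06 in KO U2OS cells.

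The response in unrecovered U2OS cells differed from that in recovered AID-DIvA cells for 33 of the 49 members in WT and 42 in KO cells, counted in either direction. These include members that passed the filter on low counts through treated libraries alone, such as STMN2 and GRIN1. GRIN2A had opposite signs at the 2 stages, with differences of 3.75 in WT and 3.57 in KO cells. Stage and line label cannot be told apart in these differences.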

How the results depend on the processing

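Of the refits of REST and of the member values that were called, over all alternatives, 2909 kept their direction and their side of the threshold, 77 fell below it, 7, all of REST, rose above it and 3 turned sign. Members that gained a call are in the counts that follow and not in these. The 3 were REST with 1 library left out, where it ranged over -0.168 to 0.0076 for the AID-DIvA interaction (highest without the first recovered KO replicate), over -0.197 to 0.130 for the U2OS interaction (highest without the first untreated WT replicate) and over -0.0409 to 0.287 for untreated KO against WT U2OS cells (lowest without that replicate). The calls lost outside leave-one-out refits were 6 values for differences between responses in KO cells (SNAP25 by DESeq2, its size factors and reverse-strand counts, SYN2 and ELAVL4 without the filter, NLGN2 with at least 10 counts everywhere).

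Without the fold threshold, members called higher numbered 26 in WT AID-DIvA, 7 in untreated KO against WT AID-DIvA and 1 in untreated KO against WT U2OS cells, and members called lower numbered 8 and 6 in WT and KO AID-DIvA, 4 in KO U2OS, and 16 and 6 in untreated KO against WT AID-DIvA and U2OS cells. For the AID-DIvA interaction DESeq2 gave 4 members above 0 and 1 below, and no filter gave 4 above. For the U2OS interaction DESeq2 and no filter each gave 2 below. The replicate block gave 1 below there and moved no other count of members by over 1.5 times. The replicate numbers do not pair the libraries, since correlations of same-numbered deviations ran from -0.30 to 0.18, so the block is given as an alternative alone. With 1 library left out, members called higher ranged over 0 to 1 (untreated KO against WT, AID-DIvA), 2 to 3 (interaction, AID-DIvA) and 3 to 9 (interaction, U2OS), and members called lower over 2 to 6 (untreated KO against WT, U2OS), 0 to 1 (interaction, AID-DIvA) and 0 to 2 (interaction, U2OS). The lone 6 came without either the second or the third untreated WT U2OS replicate, and the 9 without the first. The cause of these shifts was not tested.

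Of all genes, those called higher fell to 607 (WT) and 619 (KO) in AID-DIvA, 1954 and 1981 in U2OS, and 280 in untreated KO against WT AID-DIvA cells with at least 10 counts in every library, a filter that drops genes silent without the drug, and those called lower to 318, 320 and 279 in the AID-DIvA comparisons. Without the fold threshold, 4851, 4114, 5658 and 7590 were higher and 4661, 4042, 4995 and 7204 lower in the 4 treatment comparisons (WT and KO AID-DIvA, WT and KO U2OS), and 3793 and 1352 higher and 3709 and 1780 lower in untreated KO against WT AID-DIvA and U2OS cells. For the interactions DESeq2 gave 302 above and 164 below 0 in AID-DIvA and 459 and 458 in U2OS cells, no filter gave 422, 191 and 434 above, below and above, and the block gave 96 and 61 in AID-DIvA cells. Depth limits GRIA1, GRIA2, INA and ELAVL3, which held too few counts to be tested, and the untreated levels of SYT4, STMN4 and GRIN1.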
